A study of Mus musculus with 48 samples.

Results

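Labelled RNA was compared between 3 libraries from the superior colliculus (SC) of axotomized sarm1ko mice and 3 libraries from wild-type mice, which are 6 of the 48 samples in the series. The members were chosen by their title codes alone: AX71, AX72 and AX73 for the sarm1ko group and AX31, AX32 and AX33 for the control. The first group carries the genotype sarm1ko and the axotomy label axotomized, and its age is given as P14 followed by a 7-day chase. The control group is wild type, has the axotomy label naïve and was taken at P14 (postnatal day 14) with no chase in its label. In both groups ethynyl uridine (EU), a uridine analog that is built into newly made RNA, was injected into the vitreous of the eye, the SC of 3 animals were pooled, and RNA carrying the label was captured with biotin and streptavidin. Genotype, axotomy, chase and age all differ between the 2 groups, so their parts in any difference cannot be told apart. Nothing in the labels says how the axons were cut, how the Sarm1 allele was made, or whether each library has its own set of animals. The p-values therefore reflect library-to-library spread, which may be technical.

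Retinal ganglion cells send their axons from the eye to the SC, and RNA made in their cell bodies travels along these axons to the terminals. Sarm1 encodes an enzyme that breaks down NAD and drives the degeneration of an axon that has been severed from its cell body, and severed axons without it persist for a longer time. A severed axon receives no further RNA from its cell body, so label that reached it before the cut can only persist or decay there. The labels do not say when the axons were cut relative to the EU injection. The captured RNA also held transcripts typical of glia and of resident neurons. Whether the differences below reflect decay of RNA in severed axons was not tested. The values are relative abundances (CPM, a count scaled to library size by the TMM method of edgeR), so a loss of all labelled RNA by the same factor cannot be seen in them. In whole SC tissue, fewer cells or axons of a type and less RNA in each of them cannot be told apart.

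The 3 P14 libraries held 23308561, 22937998 and 21487576 estimated counts and the 3 sarm1ko libraries 17517265, 18993494 and 19227121, but the sarm1ko libraries spent more of them on ribosomal RNA. The rRNA locus CT010467.1 took 10.9, 4.54 and 33.7% of counts at P14 and 46.6, 27.4 and 48.5% in the sarm1ko libraries, and the 2 mitochondrial rRNA genes took 0.305, 0.041 and 1.13% and 20.3, 7.76 and 22.9%. Nuclear protein-coding genes kept 84.9, 91.9 and 61.7% of counts at P14 and 26.7, 55.1 and 17.9% in the sarm1ko libraries, so sarm1ko replicate 3 is the thinnest library for them. Across tested genes the sarm1ko libraries correlated with each other at Spearman 0.92 to 0.938 and with the 3 P14 libraries at 0.626 to 0.881.

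**Figure D1:**
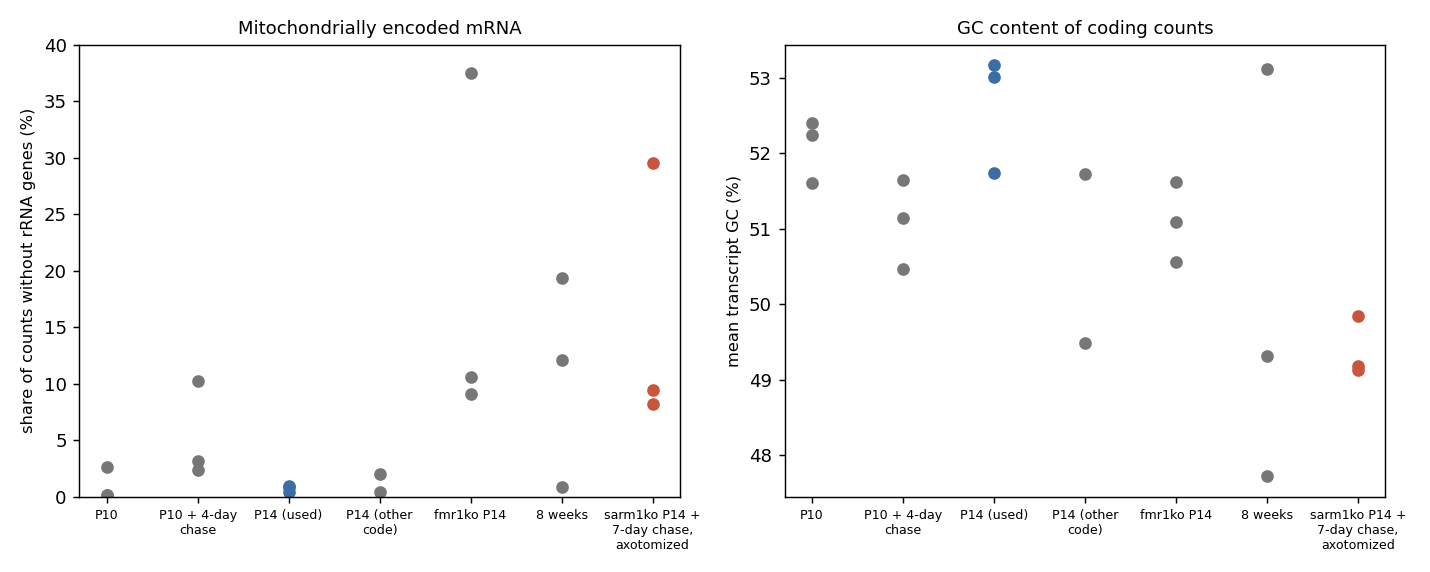
Share of mitochondrially encoded mRNA among counts outside the rRNA genes (left, percent) and mean transcript GC content of nuclear protein-coding counts (right, percent) in the 20 EU libraries of SC, 1 point per library. The 3 sarm1ko libraries hold 9.41, 8.21 and 29.5% mitochondrial mRNA against 0.829, 0.383 and 0.979% in the 3 P14 libraries used, and fmr1ko libraries, 2 of the 8-week libraries and intact 4-day chase replicate 1 reach similar shares.

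Of 17171 genes that passed a filter on low counts, 2886 (16.8%) were higher and 3567 (20.8%) were lower in the sarm1ko chase libraries than at P14, 6453 in all (37.6%, edgeR quasi-likelihood test, adjusted p under 0.05). Values after ± are standard errors of the log2 fold change between the groups, called the log2 change below. Higher were all 13 mRNAs of the mitochondrial genome, the long noncoding RNAs Malat1 and Neat1, and 5 of 14 myelin genes. Lower were over 50% of the tested genes for the nuclear part of the respiratory chain, ribosomal proteins, glycolysis, the vacuolar proton pump and oligodendrocyte precursors, and some genes of synaptic vesicles. The 3 libraries of 1 group lay wholly above the other 3 for 9924 genes (57.8%), 5161 of them higher and 4763 lower in the sarm1ko libraries. A further 37160 genes of the table were not tested, of which 24695 had no count in the 6 libraries. The number called depends on single libraries: it was 10376 without P14 replicate 3, 3815 without P14 replicate 1, 2680 without sarm1ko replicate 1 and 2944 without sarm1ko replicate 3. With 2 more wild-type P14 libraries from another series of codes, EU111 and EU211, in the control group, 1011 genes were called, of which 1009 were also called with 3 against 3, each in the same direction. EU111 and EU211 are shallower, with 2558141 and 6034159 estimated counts. EU111 had Spearman correlations of 0.615 to 0.742 with the 3 P14 libraries and 0.772 with EU211. Low values in EU111 given below therefore rest on few reads. On log2(TPM + 1) values limma called 1531 higher and 4016 lower, and the median log2 change of all tested genes moved from 0.16 to −0.34, so values below are read against the median of all genes. Counts called in each list are likewise read against the 16.8% higher and 20.8% lower of all genes. Of the genes named below with a value, 82 were called with 3 against 3, and the 3 sarm1ko libraries lay outside the range of all 5 P14 libraries for 48 of them. Genes were named partly by small adjusted p, large change and lack of overlap in the same libraries. The count of 48 follows in part from that choice, is no support for the calls, and was not set against all tested genes. Calls of 11 of these genes ended without sarm1ko replicate 1 and also without sarm1ko replicate 3, namely Nefh, Aldoc, Csf1r, Apoe, Gata3, Nampt, Mycbp2, Chrna6, Gad2, Ndufs1 and Xrn1, and no other call ended with a library left out.

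Genes that rose and genes that fell differed in GC content, and coding sequence of 3 genes of each kind is printed to show it. Each stretch is the first 90 bases of the gene's longest coding exon in GENCODE M21 on GRCm38, written 5′ to 3′ on the coding strand with G and C in capitals, and these 6 were picked from the named genes after their values were seen. The genes that rose are mt-Atp8 (chrM:7766-7855, plus strand, 27.8% GC) and mt-Atp6 (chrM:7927-8016, plus strand, 34.4% GC), which encode subunits of ATP synthase, and Aspa (chr11:73324398-73324487, minus strand, 41.1% GC), an enzyme of oligodendrocytes. The genes that fell are Cox6a1 (chr5:115348618-115348707, minus strand, 63.3% GC), a subunit of cytochrome c oxidase, Thy1 (chr9:44046614-44046703, plus strand, 58.9% GC), a surface protein of neurons, and Vgf (chr5:137030986-137031075, plus strand, 62.2% GC), a secreted neuropeptide precursor.
mt-Atp8: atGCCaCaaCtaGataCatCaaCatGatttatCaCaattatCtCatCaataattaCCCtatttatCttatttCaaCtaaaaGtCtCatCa
mt-Atp6: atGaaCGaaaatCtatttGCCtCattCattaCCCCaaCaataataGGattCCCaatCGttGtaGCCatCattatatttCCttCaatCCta
Aspa: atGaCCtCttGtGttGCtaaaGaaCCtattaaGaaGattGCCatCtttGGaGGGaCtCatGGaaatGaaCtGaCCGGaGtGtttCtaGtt
Cox6a1: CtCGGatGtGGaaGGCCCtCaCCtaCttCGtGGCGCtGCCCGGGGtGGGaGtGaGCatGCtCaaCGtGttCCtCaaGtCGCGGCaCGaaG
Thy1: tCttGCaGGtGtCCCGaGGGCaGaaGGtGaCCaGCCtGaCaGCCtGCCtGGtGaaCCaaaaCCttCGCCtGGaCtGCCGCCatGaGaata
Vgf: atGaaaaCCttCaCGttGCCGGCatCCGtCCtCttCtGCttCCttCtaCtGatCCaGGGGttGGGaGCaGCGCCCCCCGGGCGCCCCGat

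Ranked by the GC content of the longest transcript, and cut into 5 equal groups, genes of the lowest GC had a median log2 change of 1.95 and those of the highest −1.62. In the lowest group 41.1% of genes were called higher and 1.28% lower, and in the highest group 0.466% higher and 56.9% lower. The median transcript GC was 43.2% over genes called higher, 55.5% over genes called lower and 48.5% over the rest. Across 17158 genes the rank correlation of fold change with GC was −0.71 and with transcript length 0.21, given as a description because genes of a library share its base composition. Counts of coding genes had a mean transcript GC of 49.2, 49.8 and 49.1% in the sarm1ko libraries and 53, 53.2 and 51.7% at P14. EU111 had 49.5% and 8-week replicates 1 and 2 had 49.3% and 47.7%, so low values also occurred in wild-type libraries without a cut. When a smooth trend on GC and length was removed from each library, a setting added after the data were seen, 1240 genes (7.22%) were higher and 1294 (7.54%) lower. Of the 6453 genes called before, 1529 were called in the same direction after removal and 50 in the opposite direction. The median log2 change of all tested genes was 0.26 after removal. The source of the GC trend was not tested.

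**Figure D2:**
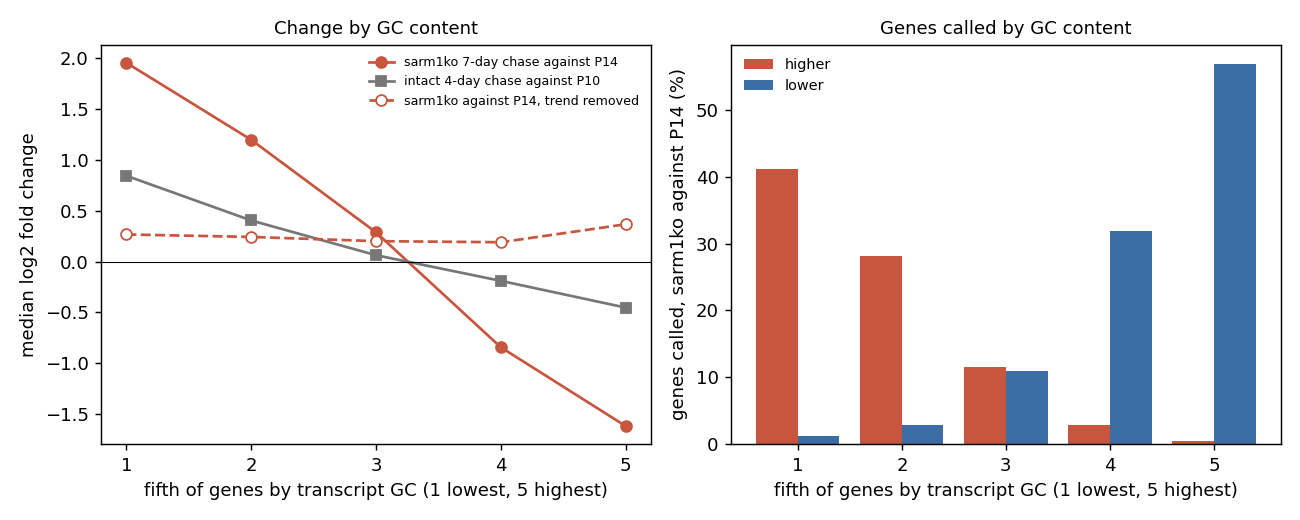
Left, median log2 change for 5 equal groups of genes ordered by transcript GC content, for the sarm1ko chase against P14, for the same comparison after removal of the GC and length trend, and for the intact 4-day chase against P10. Right, percent of genes called higher or lower in each group of the sarm1ko comparison. The medians run from 1.95 to −1.62 in the sarm1ko comparison and from 0.84 to −0.45 in the intact chase.

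Sarm1 (chr 11, 78472330 to 78497754 on GRCm38) had 3.32, 3.22 and 2.62 CPM in sarm1ko replicates 1 to 3 and 19.4, 42.1 and 19.9 CPM in P14 replicates 1 to 3 (log2 change −3.15 ± 0.48, adjusted p = 0.0023). Every sarm1ko library was below every P14 library, which goes with the genotype label, though the part of the transcript that the allele removes is not given here. A low value also occurred in wild type, with 1.73 CPM in EU111 when scaled together with the others, though this library held only 2558141 counts. The call ended with all 5 P14 libraries (adjusted p = 0.078) and with the GC trend removed (log2 change −1.24, adjusted p = 0.053). Among 22 tested genes for Sarm1 signalling, NAD synthesis and axon survival, 4 rose, 5 fell and the median log2 change was 0.47, against 0.16 over all genes. Of all tested genes 16.8% rose and 20.8% fell, so these counts are no result about the list. Nmnat2, the labile NAD-synthesizing enzyme of axons whose loss activates Sarm1, had 34.4, 13.8 and 61.1 CPM at P14 and 62.5, 51.5 and 62.5 CPM in the sarm1ko libraries, which overlap (log2 change 0.69 ± 0.47, adjusted p = 0.25). Mycbp2, the ubiquitin ligase that promotes Nmnat2 turnover, rose (167, 138 and 215 to 500.4, 277 and 570.3 CPM, log2 change 1.38 ± 0.35, adjusted p = 0.013), but its fold change was −0.37 on log2(TPM + 1) values. EU111 had 525 CPM of Mycbp2, and the call ended with all 5 P14 libraries (adjusted p = 0.17). Cast, which encodes calpastatin, the inhibitor of the calpain proteases, had 4.05, 3.59 and 8.89 CPM at P14 and 30.4, 20.7 and 44.6 CPM in the chase (log2 change 2.53 ± 0.50, adjusted p = 0.005). Nampt, which makes the precursor used by NMNAT enzymes, had 0.565, 0.166 and 1.73 CPM at P14 and 7.67, 4.61 and 5.9 CPM in the chase (log2 change 2.88, adjusted p = 0.028). This gene passed the filter only through the sarm1ko libraries, so its call is no support for a change. It had 14.6 and 7.18 CPM in EU111 and EU211, so the groups overlapped with all 5 P14 libraries (log2 change 0.56, adjusted p = 0.77). Bax, a mediator of apoptosis, fell from 58.7, 101 and 33.5 to 11.5, 8.76 and 12.9 CPM (log2 change −2.54 ± 0.44, adjusted p = 0.0033), and its log2 change was 0.23 with the GC trend removed. With that removal 1 gene of the list was called higher and 2 lower.

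**Figure D3:**
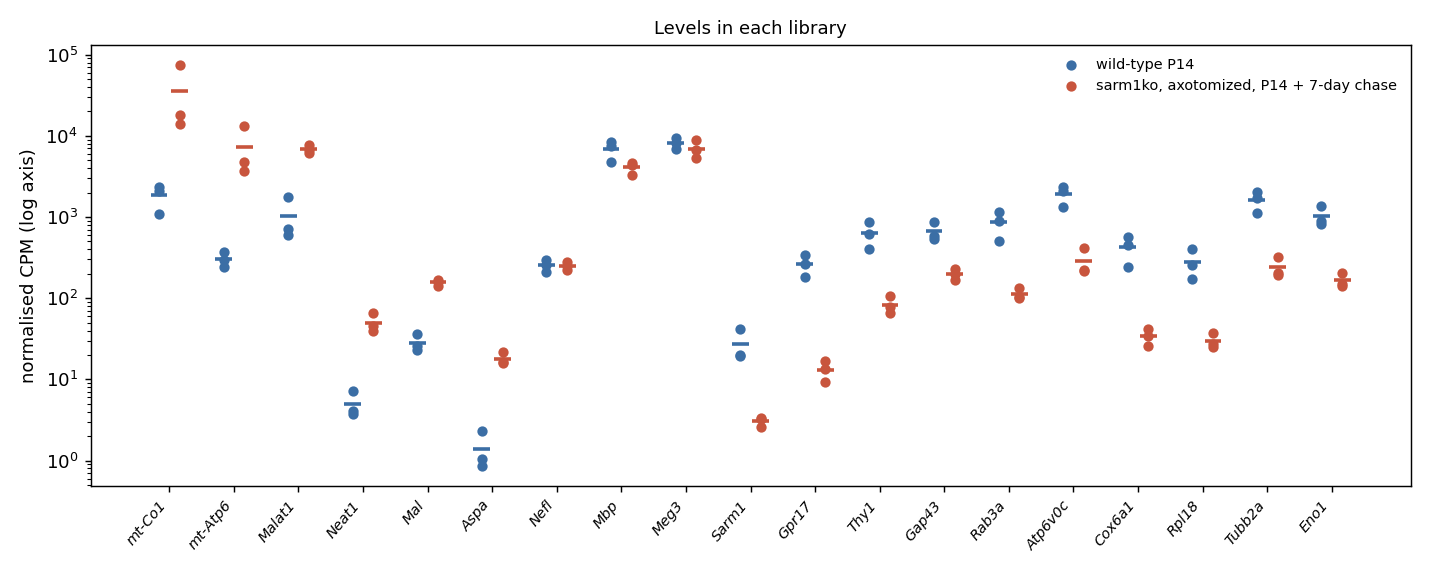
Normalised CPM on a log axis for 19 named genes in each library, 3 wild-type P14 points and 3 sarm1ko 7-day chase points per gene, with a bar at the mean. Mitochondrial, long noncoding and 2 myelin genes lie above the P14 libraries, Nefl, Mbp and Meg3 were not called, and the remaining genes lie below.

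All 13 protein-coding transcripts of the mitochondrial genome, which encode core subunits of the respiratory chain and ATP synthase, were higher in the sarm1ko chase, by 3.51 to 6.23 on the log2 scale with a median of 4.59. mt-Co1, the catalytic subunit of cytochrome c oxidase, had 2120, 1103 and 2365 CPM at P14 and 18150, 13834 and 75351 CPM in the chase (log2 change 4.26 ± 0.75, adjusted p = 0.0035). The ATP synthase subunit mt-Atp6 had 367, 243 and 295 CPM at P14 and 3674, 4764 and 13340 CPM in the chase (log2 change 4.59 ± 0.57, adjusted p = 0.0017). In both genes sarm1ko replicate 3 stood far above the other 2 libraries, which were themselves above all 3 P14 libraries. The complex I subunit mt-Nd2 went from 67.4, 42.7 and 113 to 1140, 1405 and 6450 CPM (log2 change 5.34, adjusted p = 0.0021). mt-Atp8 and mt-Nd4l overlap mt-Atp6 and mt-Nd4 on the mitochondrial genome and share reads with them, so their log2 changes of 5.80 and 6.23 are uncertain. The small and large mitochondrial rRNAs, mt-Rnr1 and mt-Rnr2, moved the same way by 7.86 ± 1.23 and 5.90 ± 1.33 (adjusted p = 0.0024 and 0.0084). All 13 mRNAs were called with each library left out in turn and with all 5 P14 libraries, where the median was 4.93, and 11 were called with the GC trend removed, at a median of 2.48. The same transcripts were high in other groups: fmr1ko libraries at P14 held 10.6, 37.5 and 9.04% 8-week replicates 1 and 2 held 19.3 and 12.1%, and intact 4-day chase replicate 1 held 10.2% of counts outside rRNA.

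Nuclear genes for the same machinery went the other way: of 81 tested subunits of oxidative phosphorylation 56 were lower and 1, the complex I subunit Ndufs1, was higher, with a median log2 change of −1.76 against 0.16 over all genes. By complex, 29 of 39 complex I genes, 3 of 4 complex II genes, 4 of 9 complex III genes, 7 of 11 complex IV genes and 13 of 17 ATP synthase genes were lower. Cox6a1 of complex IV fell from 455, 569 and 244 CPM at P14 to 34.6, 41.3 and 26 CPM (log2 change −3.64 ± 0.39, adjusted p = 0.0017). Cox8a of the same complex had 422, 486 and 205 CPM at P14 and 40.9, 58.4 and 37.3 CPM in the chase (log2 change −3.03 ± 0.39, adjusted p = 0.0017). Atp5d, the delta subunit of ATP synthase, had 471, 555 and 277 CPM at P14 and 43.9, 76 and 65.5 CPM in the chase (log2 change −2.81 ± 0.37, adjusted p = 0.0017). For each of these 3 genes the highest sarm1ko library was well below the lowest P14 library. EU111 had 24.7 CPM of Cox6a1, 39.2 CPM of Cox8a and 67.1 CPM of Atp5d, as low as the sarm1ko libraries. With all 5 P14 libraries 6 genes of the list were called, at a median of −1.44. After removal of the GC trend 42 of the 81 were lower and none higher, and the median was −1.11. Ndufs1 had 4.55, 2.16 and 11.4 CPM at P14 and 17.6, 28.5 and 18.3 CPM in the chase (log2 change 1.83 ± 0.60, adjusted p = 0.035), and its fold change was −0.65 with all 5 P14 libraries. Proteins of the mitochondrial ribosome, which translates the mitochondrial mRNAs and is encoded in the nucleus, fell as well, with 42 of 78 lower, 1 higher (Mrpl50) and a median of −1.27. Mrpl34 had 41.3, 82.4 and 39.1 CPM at P14 and 3.95, 6.36 and 5.03 CPM in the chase (log2 change −3.40 ± 0.44, adjusted p = 0.0017). Mrpl53 had 43.5, 67.3 and 25.7 CPM at P14 and 4.75, 5.39 and 4.16 CPM in the chase (log2 change −3.25 ± 0.45, adjusted p = 0.0019). EU111 had 4.93 CPM of Mrpl34 and 5.43 CPM of Mrpl53, within the range of the sarm1ko libraries. Removal of the GC trend left 25 lower and 1 higher, and with all 5 P14 libraries 7 were lower.

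Cytoplasmic ribosomal proteins, whose mRNAs are among those carried into axons, were lower for 49 of 84 tested genes and higher for 2 (Rpl7 and Rps24), with a median log2 change of −1.53. The large subunit had 28 of 50 lower and the small subunit 21 of 34. Rpl18 had 258, 409 and 175 CPM at P14 and 27.2, 37.4 and 25.1 CPM in the chase (log2 change −3.23 ± 0.38, adjusted p = 0.0017). Fau, a precursor of a small-subunit protein, had 283, 503 and 224 CPM at P14 and 37.7, 42.1 and 39 CPM in the chase (log2 change −3.09 ± 0.36, adjusted p = 0.0017). The P14 and sarm1ko libraries did not overlap for either gene. EU111 had 3.21 CPM of Fau, below all sarm1ko libraries, and with all 5 P14 libraries 6 members were lower, Rpl18 among them. The counts were 32 lower and 3 higher with the GC trend removed, at a median of −0.75. Many of these genes have processed pseudogenes of near-identical sequence, so reads are divided between copies and single values are uncertain. Of 26 translation factors 9 fell and 4 rose. Eef2, which moves the ribosome along the mRNA, had 1536, 1957 and 1160 CPM at P14 and 397, 497 and 331 CPM in the chase (log2 change −1.93 ± 0.34, adjusted p = 0.0034). Tpt1, whose mRNA is regulated together with those of ribosomal proteins, had 931, 969 and 975 CPM at P14 and 230.3, 265 and 254 CPM in the chase (log2 change −1.94 ± 0.28, adjusted p = 0.0021). After removal of the GC trend neither was called and 6 of the 26 were lower. EU111 and EU211 had 170 and 250 CPM of Tpt1, below all sarm1ko libraries, and it was not called with all 5 P14 libraries (adjusted p = 0.18). Proteasome subunits had 13 of 37 lower, 3 higher and a median of −0.68. The lower count was 6 after removal of the GC trend, with 2 higher, and 1 with all 5 P14 libraries. Without sarm1ko replicate 1, sarm1ko replicate 3 or P14 replicate 1 it was 4, 5 and 6.

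Energy supply beyond the mitochondrion followed the same direction. Glycolytic enzymes fell for 13 of 16 genes and none rose, with a median of −1.71. The enolase gene Eno1 had 894, 1358 and 817 CPM at P14 and 152, 205 and 143 CPM in the chase (log2 change −2.62 ± 0.34, adjusted p = 0.0017). Its neuronal form Eno2 had 529, 719 and 335 CPM at P14 and 107, 112 and 111 CPM in the chase (log2 change −2.26 ± 0.34, adjusted p = 0.0022). Eno1 lay below all 5 P14 libraries, whereas EU111 and EU211 had 58 and 126 CPM of Eno2 and overlapped the sarm1ko libraries. Removal of the GC trend left 5 of the 16 lower, Eno2 among them, and a median of −0.41. The vacuolar proton pump, which acidifies synaptic vesicles and lysosomes, had 10 of 16 genes lower and 3 higher. Atp6v0c, which forms the rotating ring of the pump, had 2107, 2361 and 1327 CPM at P14 and 214, 419.7 and 223 CPM in the chase (log2 change −2.76 ± 0.40, adjusted p = 0.0021). The membrane subunit Atp6v0a1 had 214, 261 and 154 CPM at P14 and 28.9, 34.2 and 36.3 CPM in the chase (log2 change −2.66 ± 0.32, adjusted p = 0.0017). Both lay below all 5 P14 libraries and both were called with all 5 (adjusted p = 0.03 and 0.016) and with the GC trend removed (log2 change −1.92 and −3.34). The 3 pump genes that rose were Atp6ap2, Atp6v1a and Atp6v1h, and after that removal 5 of the 16 were lower and 1 higher.

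Among 15 tested markers of retinal ganglion cells 4 fell, 10 were not called and Chrna6 was called higher. Over all tested genes 20.8% were lower, so the count of falls is no result about these markers. Thy1 had 626, 881 and 409 CPM at P14 and 66.6, 105 and 78.6 CPM in the chase (log2 change −2.94 ± 0.37, adjusted p = 0.0017). The growth cone protein Gap43 had 591, 874 and 529 CPM at P14 and 202, 228 and 166 CPM in the chase (log2 change −1.74 ± 0.31, adjusted p = 0.0037). Each lay below all 5 P14 libraries and stayed called with the GC trend removed. The neurofilament subunits were uneven: Nefl had 208, 258 and 297 CPM at P14 and 282, 247 and 221 CPM in the chase, which overlap (log2 change −0.03 ± 0.28, adjusted p = 0.95). Nefh, the heavy subunit, went from 124, 159 and 95.4 to 66, 65 and 44.5 CPM (log2 change −1.11 ± 0.32, adjusted p = 0.021), but was higher with the GC trend removed (log2 change 0.89, adjusted p = 0.046). Chrna6, a nicotinic receptor subunit of these cells, had 0.0942, 0 and 0.236 CPM at P14 and 3.16, 0.853 and 4.7 CPM in the chase. It passed the filter only through the sarm1ko libraries and was picked after its values were seen, so its call is no support for a change. In the cytoskeleton and transport list 22 of 40 genes were lower and 7 higher, with a median of −1.03. The tubulin Tubb2a, which shares sequence with other tubulins, had 1694, 2060 and 1125 CPM at P14 and 193, 324 and 204 CPM in the chase (log2 change −2.76 ± 0.37, adjusted p = 0.0018). The neuronal tubulin Tubb3 had 966, 1227 and 731 CPM at P14 and 236, 241 and 201 CPM in the chase (log2 change −2.11 ± 0.31, adjusted p = 0.0022). Dctn2, a subunit of dynactin, the partner of the motor dynein, fell as well (log2 change −1.88, adjusted p = 0.0028). Removal of the GC trend left Tubb2a at −1.07 and Dctn2 at −2.14, both called, but Tubb3 at 0.004, and the list then had 7 lower, 3 higher and a median of 0.06, below the 0.26 of all genes.

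Presynaptic proteins fell for 20 of 50 genes and rose for 6, with a median of −0.68. Rab3a, the GTPase of synaptic vesicles, had 903, 1165 and 512 CPM at P14 and 102, 133 and 101 CPM in the chase (log2 change −2.94 ± 0.37, adjusted p = 0.0017). Sncb, which encodes beta-synuclein, had 45.4, 65.2 and 30.4 CPM at P14 and 3.16, 4.53 and 3.61 CPM in the chase (log2 change −3.63 ± 0.43, adjusted p = 0.0017). The vesicle membrane protein Syp had 1055, 1283 and 655 CPM at P14 and 135, 159.6 and 181 CPM in the chase (log2 change −2.65 ± 0.35, adjusted p = 0.0017). All 3 were called with the GC trend removed (log2 change −1.22, −1.11 and −3.71), which left 15 of the 50 lower and 6 higher. Rab3a and Sncb lay below all 5 P14 libraries, and Syp did not, since EU111 had 133 CPM. With all 5 P14 libraries 11 members of the list were lower and 1 higher. In the secretory granule list 6 of 14 genes fell and 2 rose. Vgf fell from 41.6, 51.9 and 29.1 to 3.16, 2.33 and 1.97 CPM (log2 change −4.03 ± 0.43, adjusted p = 0.0017). Postsynaptic and receptor genes, 5 higher and 4 lower of 25, and voltage-gated channels, 3 higher and 6 lower of 24, were split. Over all tested genes 16.8% were higher and 20.8% lower. Removal of the GC trend gave 4 lower and 0 higher for secretory granules, 1 higher and 4 lower for postsynaptic genes, and 1 higher and 3 lower for channels.

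Of 11 long noncoding RNAs of the brain 5 rose, 2 fell and 4 were not called. Malat1 had 709, 604 and 1755 CPM at P14 and 7805, 6184 and 6639 CPM in the chase (log2 change 2.75 ± 0.48, adjusted p = 0.0033). Neat1, the RNA of paraspeckles, had 4.05, 7.22 and 3.7 CPM at P14 and 45.3, 39.1 and 65.8 CPM in the chase (log2 change 3.32 ± 0.43, adjusted p = 0.0017). Snhg14, which runs antisense to Ube3a, had 27.9, 33.3 and 99 CPM at P14 and 538, 214 and 568 CPM in the chase (log2 change 3.04 ± 0.56, adjusted p = 0.004). Meg3, another nuclear RNA of neurons, overlapped between groups, with 8091, 9325 and 6806 CPM at P14 and 8787, 5339 and 6610 CPM in the chase (log2 change −0.22 ± 0.38, adjusted p = 0.66). The median of the list was 0.81, or −0.52 on log2(TPM + 1) values and −0.29 with the GC trend removed. After that removal 2 rose and 1 fell, and Malat1 and Neat1 stayed called and Snhg14 did not. With all 5 P14 libraries no member was called, though Malat1 lay above all 5, EU111 having 3980 CPM of Malat1 and 48.8 CPM of Neat1. Factors of mRNA decay, the machinery that removes cytoplasmic mRNA, were higher for 9 of 38 genes and lower for 4 (6 and 2 after removal of the GC trend), with a median of 0.55, or −0.33 on log2(TPM + 1) values, where the median of all genes was −0.34. Dis3, a nuclease of the exosome, had 0.314, 0.366 and 0.826 CPM at P14, close to the filter, and 8.07, 3.95 and 8.53 CPM in the chase. It passed the filter only through the sarm1ko libraries, so its values are no support for a change. Xrn1, the exonuclease that degrades decapped mRNA, had 6.59, 4.09 and 29.1 CPM at P14 and 58.6, 48.4 and 65.9 CPM in the chase (log2 change 2.12 ± 0.64, adjusted p = 0.026). Smg1, a kinase of nonsense-mediated decay, had 2.04, 1.9 and 16.2 CPM at P14 and 108, 36.8 and 98.8 CPM in the chase (log2 change 3.60 ± 0.83, adjusted p = 0.0091). The groups did not overlap for Xrn1 or Smg1, nor for 57.8% of all tested genes, and both genes were picked after their values were seen. EU111 had 71.3 CPM of Smg1, within the range of the sarm1ko libraries, and Smg1 was not called with all 5 P14 libraries (adjusted p = 0.17). The call of Xrn1 ended without sarm1ko replicate 1 and also without sarm1ko replicate 3. The deadenylase subunit Cnot2 also rose (log2 change 2.60, adjusted p = 0.0082), and Upf3a, a factor of nonsense-mediated decay, fell (−1.35, adjusted p = 0.008).

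Markers of oligodendrocytes and their precursors were abundant in the captured RNA of both groups and differed in direction. Summed over 14 myelin genes the P14 libraries had 11026, 12605 and 8964 CPM and the sarm1ko libraries 10926, 10614 and 8964 CPM, so the sum overlapped. Within that sum 5 genes rose, 3 fell and 6 were not called, with a median log2 change of 0.72, or −0.22 on log2(TPM + 1) values. Mal, a myelin lipid-raft protein, had 22.7, 25.5 and 36.7 CPM at P14 and 159, 169 and 142 CPM in the chase (log2 change 2.47 ± 0.31, adjusted p = 0.0017). Aspa had 1.04, 0.865 and 2.28 CPM at P14 and 15.7, 21.7 and 16.2 CPM in the chase (log2 change 3.68 ± 0.57, adjusted p = 0.0023). Ermn, a cytoskeletal protein of mature oligodendrocytes, had a log2 change of 4.52 (adjusted p = 0.0027). It was near 0 at P14 (1.38, 0.317 and 2.61 CPM when scaled with all 5 P14 libraries). It passed the filter only through the sarm1ko libraries, so its call, counted among the 5 rises, is no support for a change. Mal and Aspa lay above all 5 P14 libraries and were called with the GC trend removed. Mbp, myelin basic protein, had 7420, 8320 and 4746 CPM at P14 and 4438, 4624 and 3324 CPM in the chase (log2 change −0.73 ± 0.38, adjusted p = 0.15) and was not called, although the 3 chase libraries lay below the 3 P14 libraries. Mobp, another basic protein of myelin, had 1165, 1456 and 1075 CPM at P14 and 1331, 1079 and 1233 CPM in the chase (log2 change −0.02 ± 0.30, adjusted p = 0.96) and overlapped between groups. Cnp, an enzyme of myelin, fell, with 1482, 1660 and 1288 CPM at P14 and 337, 487 and 299 CPM in the chase (log2 change −1.98 ± 0.32, adjusted p = 0.0027). Mag, an adhesion protein of the inner myelin layer, had 425, 515 and 337 CPM at P14 and 164, 148 and 115 CPM in the chase (log2 change −1.58 ± 0.30, adjusted p = 0.0045). Both were below every one of the 3 P14 libraries, but EU111 had 244 CPM of Cnp and 140 CPM of Mag. With all 5 P14 libraries both overlapped and neither was called (adjusted p = 0.154 and 0.146). After removal of the GC trend their log2 changes were −0.57 and 0.42, not called, and 6 myelin genes were higher and none lower.

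In the precursor list 6 of 11 genes fell and none rose, with a median of −1.76, and the sum of the list went from 1066, 1165 and 934 CPM at P14 to 356, 381 and 322 CPM. Gpr17, a receptor of precursors that are about to differentiate, had 263, 344 and 185 CPM at P14 and 9.33, 13.4 and 16.6 CPM in the chase (log2 change −4.33 ± 0.38, adjusted p = 0.0017). It stayed lower after removal of the GC trend (log2 change −3.24, adjusted p = 0.0024) and against the 5 P14 libraries (−3.87, adjusted p = 0.031). EU111 had 18.5 CPM, within the range of the sarm1ko libraries. The lineage transcription factor Olig1 had 354, 316 and 260.1 CPM at P14 and 52.6, 85.1 and 64.1 CPM in the chase (log2 change −2.20 ± 0.31, adjusted p = 0.002). Sox10, which acts with it, had 113, 125 and 93.6 CPM at P14 and 13.5, 21.8 and 15.2 CPM in the chase (log2 change −2.71 ± 0.33, adjusted p = 0.0017). In both genes the sarm1ko libraries lay below all 5 P14 libraries. Their values with the GC trend removed were 0.11 and −0.41, not called, which left 2 members lower. Whether the labelled glial RNA came from axons or from glial cells was not tested.

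Markers of other cells in the SC are given here against 16.8% higher and 20.8% lower over all tested genes. A count near these shares is no result about a list. Astrocyte genes had 4 of 14 lower and none higher, or 3 lower and 2 higher after removal of the GC trend. The aldolase Aldoc had 2291, 2299 and 1128 CPM at P14 and 568, 795 and 602 CPM in the chase (log2 change −1.54 ± 0.37, adjusted p = 0.01). Atp1b2, a subunit of the sodium pump, had 591, 682 and 438 CPM at P14 and 149.9, 224 and 163 CPM in the chase (log2 change −1.67 ± 0.31, adjusted p = 0.0042). Gfap, the intermediate filament that rises in reactive astrocytes, had 356, 283 and 205 CPM at P14 and 172, 184 and 291 CPM in the chase (log2 change −0.38 ± 0.33, adjusted p = 0.37). It was higher with the GC trend removed (log2 change 1.27, adjusted p = 0.027). The glutamate transporter Slc1a2 had 323, 142 and 748 CPM at P14 and 913, 855 and 800.1 CPM in the chase (log2 change 1.08 ± 0.50, adjusted p = 0.11). Microglial genes had 5 of 14 lower and none higher, among them the membrane protein Tmem119 with 19.1, 56 and 21.2 CPM at P14 and 4.67, 4.19 and 3.94 CPM in the chase (log2 change −2.91 ± 0.51, adjusted p = 0.0034). Csf1r, the receptor on which these cells depend, had 102, 108 and 47.5 CPM at P14 and 29.7, 47.7 and 40.3 CPM in the chase (log2 change −1.13 ± 0.37, adjusted p = 0.037) and overlapped between groups although it was called. The complement gene C1qb was not called, with 40.9, 51.1 and 22.1 CPM at P14 and 14, 35.7 and 21.8 CPM in the chase (log2 change −0.67 ± 0.44, adjusted p = 0.24). It was higher after removal of the GC trend (log2 change 1.42, adjusted p = 0.019), when no microglial gene was lower. Of 13 genes of phagocytic microglia 4 fell and 1 rose. The lipid carrier Apoe went down (log2 change −1.65, adjusted p = 0.013). The lipase Lpl went up, with 4.33, 1.8 and 6.73 CPM at P14 and 30.2, 22.7 and 30.7 CPM in the chase (log2 change 2.70 ± 0.52, adjusted p = 0.0047). Endothelial genes had 5 of 12 lower and 1 higher, or 1 lower and 0 higher after that removal. Cldn5, a tight junction protein, had 112, 140.1 and 81.9 CPM at P14 and 23.6, 27.4 and 30.8 CPM in the chase (log2 change −2.03 ± 0.32, adjusted p = 0.0024). The growth factor receptor Kdr was lower too (log2 change −1.82, adjusted p = 0.0082). With all 5 P14 libraries no astrocyte, microglial or endothelial gene was called. Rod photoreceptor genes, which would mark retinal tissue, were near 0: 3 of 14 passed the filter, with sums of 22.3, 13.2 and 10.5 CPM at P14 and 22.9, 17.7 and 22.2 CPM in the chase, and none was called. The 5 blood genes summed to 2193, 13174 and 5690 CPM at P14 and 2417, 2251 and 2022 CPM in the chase, and 2 were lower.

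Genes of neurons that reside in the SC gave both directions. Gad1, which makes the transmitter GABA, had 31.4, 21.3 and 82.9 CPM at P14 and 194, 248 and 288 CPM in the chase (log2 change 2.43 ± 0.48, adjusted p = 0.0051). Its partner Gad2 had 14, 18.1 and 77 CPM at P14 and 147, 132 and 149.7 CPM in the chase (log2 change 1.97 ± 0.57, adjusted p = 0.022). EU111 and EU211 had 432 and 97.1 CPM of Gad2, which overlaps the sarm1ko libraries, and with all 5 P14 libraries its log2 change was 0.35 (adjusted p = 0.81). Slc32a1, which loads GABA into vesicles, went the other way, with 42.5, 58.3 and 32.2 CPM at P14 and 2.93, 4.57 and 3.39 CPM in the chase (log2 change −3.60 ± 0.42, adjusted p = 0.0017). The peptide gene Sst, somatostatin, also fell, with 58.8, 78.8 and 36.2 CPM at P14 and 6.88, 5.15 and 4.37 CPM in the chase (log2 change −3.40 ± 0.42, adjusted p = 0.0017). Gad1, Slc32a1 and Sst lay outside the range of all 5 P14 libraries and kept their call with the GC trend removed (log2 change 1.96, −1.23 and −1.54). Midbrain transcription factors, which mark neurons of the SC itself, had 3 of 9 lower and none higher. Tfap2b had 105, 119.8 and 73.7 CPM at P14 and 25.7, 38.9 and 42.8 CPM in the chase (log2 change −1.48 ± 0.33, adjusted p = 0.0081). Gata3 had 80.1, 79.7 and 34.9 CPM at P14 and 17.2, 33.8 and 18.7 CPM in the chase (log2 change −1.48 ± 0.42, adjusted p = 0.021). EU111 had 24.9 CPM of Gata3, within the range of the sarm1ko libraries, and the call ended with all 5 P14 libraries (adjusted p = 0.15). RNA of genes typical of resident neurons was thus present in both groups, and its part in the differences was not tested.

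Genes that respond to axon injury were lower for 7 and higher for 2 of 17. Sox11, a transcription factor induced in injured retinal ganglion cells, rose from 34.2, 25.2 and 34.9 to 76.8, 73.4 and 83.1 CPM (log2 change 1.31 ± 0.30, adjusted p = 0.0083). Atf4, a mediator of the stress response, fell, with 129.9, 148 and 82.7 CPM at P14 and 40.7, 43.4 and 36.5 CPM in the chase (log2 change −1.58 ± 0.31, adjusted p = 0.0051). The injury-induced protease Ecel1 fell as well, with 21.9, 29.5 and 14.8 CPM at P14 and 2.14, 3.1 and 5.36 CPM in the chase (log2 change −2.65 ± 0.51, adjusted p = 0.0047). None of these 3 was called with the GC trend removed (log2 change 0.42, 0.17 and −0.37). Immediate early genes had 4 of 15 lower and 2 higher. Arc, an activity-induced gene whose mRNA moves into dendrites, had 32.5, 51.2 and 19.2 CPM at P14 and 9.02, 6.63 and 10.3 CPM in the chase (log2 change −1.99 ± 0.45, adjusted p = 0.0081). EU111 had 1.97 CPM of Arc, below all sarm1ko libraries, and the call ended with all 5 P14 libraries (adjusted p = 0.27). After removal of the GC trend 3 were higher and none lower, and the median turned from −0.85 to 0.69, with Arc at 0.25. Long mRNAs bound by FMRP, a repressor of translation, had 25 of 77 higher and 17 lower, with a median of 0.04. That split changed with the setting: it was 10 higher and 34 lower with a length trend alone removed, at a median of −0.85, and 13 and 3 with GC and length removed. Without sarm1ko replicate 1 or 3 it was 7 and 9, or 8 and 10, without P14 replicate 1 it was 8 and 11, and with all 5 P14 libraries 2 and 5. The remaining lists had few calls: 1 higher and 3 lower of 11 reactive astrocyte genes, 1 higher of 5 macrophage genes, 3 lower of 8 pericyte genes and 1 lower of 15 interferon genes. Of 19 chaperones 2 were higher and 6 lower, of 14 genes of cholesterol synthesis 4 and 2, and of 10 housekeeping genes 1 and 2. None of 13 proliferation genes was called.

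**Figure D4:**
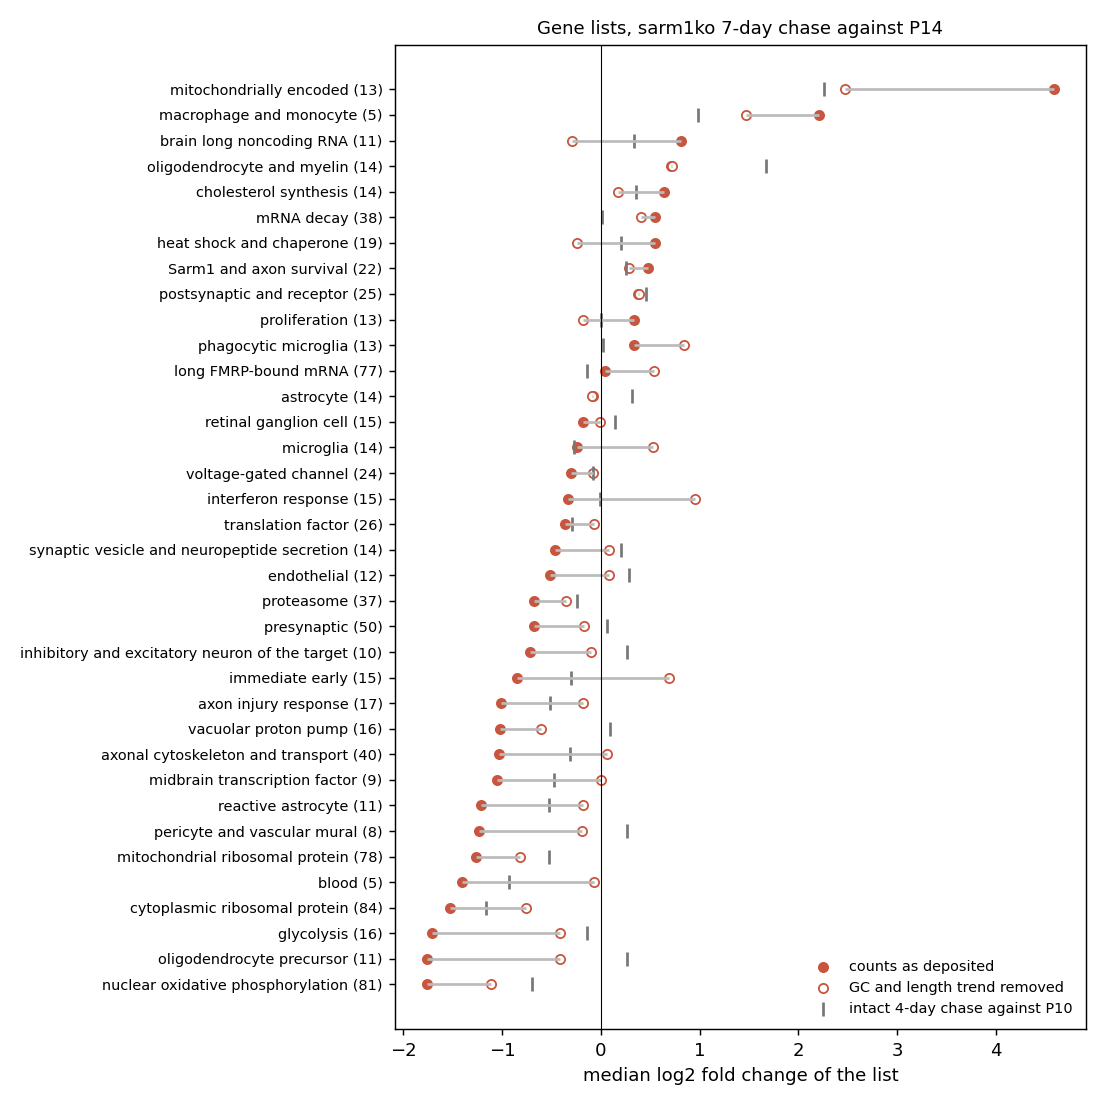
Median log2 fold change of each gene list (number of tested genes in parentheses) in the sarm1ko chase against P14, from counts as deposited (filled) and with the GC and length trend removed (open), with the median in the intact 4-day chase against P10 (bar). Mitochondrially encoded transcripts lie at 4.59 and 2.48, nuclear oxidative phosphorylation at −1.76 and −1.11, and removal takes the cytoskeletal list to 0.06, the immediate early list to 0.69 and the long noncoding list to −0.29, against 0.26 over all genes.

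The counts by list also moved when a library was left out. Without sarm1ko replicate 1 or 3 the genes called lower numbered 42 and 42 for nuclear oxidative phosphorylation, 39 and 39 for cytoplasmic ribosomal proteins and 22 and 24 for mitochondrial ribosomal proteins. In the same 2 settings they numbered 11 and 11 for glycolysis, 6 and 6 for the proton pump, 14 and 16 for presynaptic proteins and 16 and 16 for the cytoskeleton. Oligodendrocyte precursor genes kept a count of 6 lower whichever of the 6 libraries was left out. Of mRNA decay factors 3 and 4 were higher without sarm1ko replicates 1 and 3 and 16 without P14 replicate 3, so that count depends on those libraries. Lower counts of 9 translation factors, 6 channels and 5 microglial genes became 5, 1 and 1 without sarm1ko replicate 1 and also without sarm1ko replicate 3. Presynaptic genes called higher, 6 of 50, numbered 1 without P14 replicate 1 and 16 without P14 replicate 3. With all 5 P14 libraries no decay factor was called.

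Some genes with large changes lay outside these groups. Aldh1a1, a retinaldehyde dehydrogenase, had 1.13, 0.699 and 2.99 CPM at P14 and 39.2, 28.9 and 50.6 CPM in the chase (log2 change 4.63 ± 0.60, adjusted p = 0.0017), but EU111 had 42.2 CPM. Eno1b went from 1.48, 2.33 and 2.44 to 24.6, 68.9 and 54.9 CPM (log2 change 4.57 ± 0.50, adjusted p = 0.0017), while EU211 had 252 CPM, and reads may be divided between it and Eno1, which it resembles. Scd1, a fatty acid desaturase, rose from 1.95, 1.96 and 4.72 to 39.2, 32.2 and 34.2 CPM (log2 change 3.62 ± 0.48, adjusted p = 0.0018), with 94.5 and 26.6 CPM in EU111 and EU211. On the other side Ttc9b had 76.7, 88.3 and 32.6 CPM at P14 and 2.29, 3.6 and 1.75 CPM in the chase (log2 change −4.66 ± 0.51, adjusted p = 0.0017). Fxyd7, a regulator of the sodium pump, had 82.2, 78.4 and 36.3 CPM at P14 and 1.34, 4.81 and 3.94 CPM in the chase (log2 change −4.27 ± 0.55, adjusted p = 0.0017). Eln, which encodes elastin, had 72.3, 85.5 and 32.5 CPM at P14 and 4.51, 2.67 and 4.92 CPM in the chase (log2 change −3.99 ± 0.48, adjusted p = 0.0017). Fxyd7 and Eln lay below all 5 P14 libraries, and Ttc9b overlapped EU111, which had 0.74 CPM. All 3 stayed called with the GC trend removed, at −2.18, −2.05 and −1.79.

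A second chase in the series allows a comparison with intact axons: 3 wild-type naïve libraries labelled P10 with a 4-day chase, against 3 wild-type P10 libraries, none of which is among the 6 above. Starting age and chase length differ from those of the sarm1ko group as well as genotype and axotomy, so a difference between the 2 chases cannot be assigned to the cut. By itself the intact chase had 1 of 16746 genes called (0.00597%, the predicted gene Gm10925), with 3030 genes at an unadjusted p under 0.05, 939 called by DESeq2 and 2 by limma. Wild-type naïve libraries at 8 weeks against the same P14 libraries had 0 of 16942 (0%), with 1548 genes at an unadjusted p under 0.05, 803 called by DESeq2 and 0 by limma, though 3385 were called without 8-week replicate 3. Over 15667 genes the fold changes of the 2 chases had a rank correlation of 0.60, and 73.9% had the same sign. This is a description only, since fold changes also correlated with transcript GC at −0.71 in the sarm1ko comparison and −0.53 in the intact chase. The median absolute log2 change was 1.32 in the sarm1ko chase and 0.56 in the intact chase. The difference between the 2 chases, tested as an interaction over the 12 libraries, was called for 156 genes above (0.797%) and 896 below (4.58%) of 19578. With the GC trend removed the numbers were 20 and 107. They also depend on single libraries: the total was 255 without P10 replicate 3, 158 and 329 without 4-day chase replicates 2 and 3, 696, 240 and 4306 without P14 replicates 1 to 3, and 344, 2034 and 337 without sarm1ko replicates 1 to 3.

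Gpr17 shared the smallest adjusted p of this test with the pseudogene Rps13-ps2. It was at 112, 173 and 94.6 CPM at P10 and 107, 173 and 175 CPM after the intact chase (log2 change 0.26), where the sarm1ko comparison had a fall (difference −4.66 ± 0.50, adjusted p = 0.00047). Mbp had 1076, 1182 and 1536 CPM at P10 and 5113, 3247 and 3001 CPM after the intact chase (log2 change 1.58, difference −2.36 ± 0.55, adjusted p = 0.024). Mobp had 215, 164 and 254 CPM at P10 and 1028, 605 and 511 CPM after the intact chase (difference −1.84, adjusted p = 0.034). With the GC trend removed the differences of Mbp and Mobp were not called (adjusted p = 0.055 and 0.29). Mal had 7.76, 7.87 and 14.4 CPM at P10 and 88, 44.8 and 31.2 CPM after the intact chase, and its difference was not called (−0.02 ± 0.52, adjusted p = 0.99). Syngr1, a synaptic vesicle protein, had 100.4, 129 and 95.1 CPM at P10 and 93.3, 307 and 216 CPM after the intact chase. In the sarm1ko comparison it fell from 415, 449 and 220.4 to 25.9, 46.5 and 29.4 CPM (difference −4.38 ± 0.59, adjusted p = 0.0028). Sirt2, a deacetylase abundant in myelin, fell from 668, 608 and 400.3 to 71.1, 89.4 and 66.7 CPM. In the intact pair it had 339.6, 398 and 352 CPM at P10 and 562, 488 and 459.6 CPM after the chase (difference −3.40 ± 0.42, adjusted p = 0.0012). Sema4d, a semaphorin of oligodendrocytes, and Parvb, an adhesion protein, had differences of −3.38 and −3.46 (adjusted p = 0.0012 for each). Gas5, a host gene of small nucleolar RNAs, was on the other side, with 1.76, 4.46 and 7.04 CPM at P14 and 20.2, 47.3 and 22.3 CPM in the sarm1ko chase. In the intact pair it had 90.8, 137 and 82.5 CPM at P10 and 71.7, 56.7 and 33.6 CPM after the chase (difference 3.67 ± 0.69, adjusted p = 0.011). Its difference was 2.97 with the GC trend removed, not called (adjusted p = 0.0502). By list, 21 of 81 nuclear oxidative phosphorylation genes, 14 of 50 presynaptic genes, 7 of 16 pump genes, 7 of 16 glycolytic genes and 5 each of the myelin and precursor lists were called lower in the difference. None of these lists had a gene called higher, which is near the 0.797% called higher over all genes. Of the 13 mitochondrially encoded mRNAs 1, mt-Atp8, was called higher in the difference, the intact chase having a median of 2.26. Set directly against the intact chase libraries, which shares the 3 sarm1ko libraries with the comparison above, 1774 genes (9.86%) were higher and 2040 (11.3%) lower of 17991. Among those lower were 66 of 81 nuclear oxidative phosphorylation genes and 59 of 84 ribosomal protein genes. Higher were 7 of 13 mitochondrially encoded genes, with 0 lower. Of 14 myelin genes 7 were higher and 1 lower, with a median log2 change of 1.27. Long FMRP-bound mRNAs had 22 higher and 10 lower of 77. On log2(TPM + 1) values limma called 485 higher and 4942 lower. The number called was 2041 without 4-day chase replicate 2, and 1546 and 1581 without sarm1ko replicates 1 and 3.

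**Figure D5:**
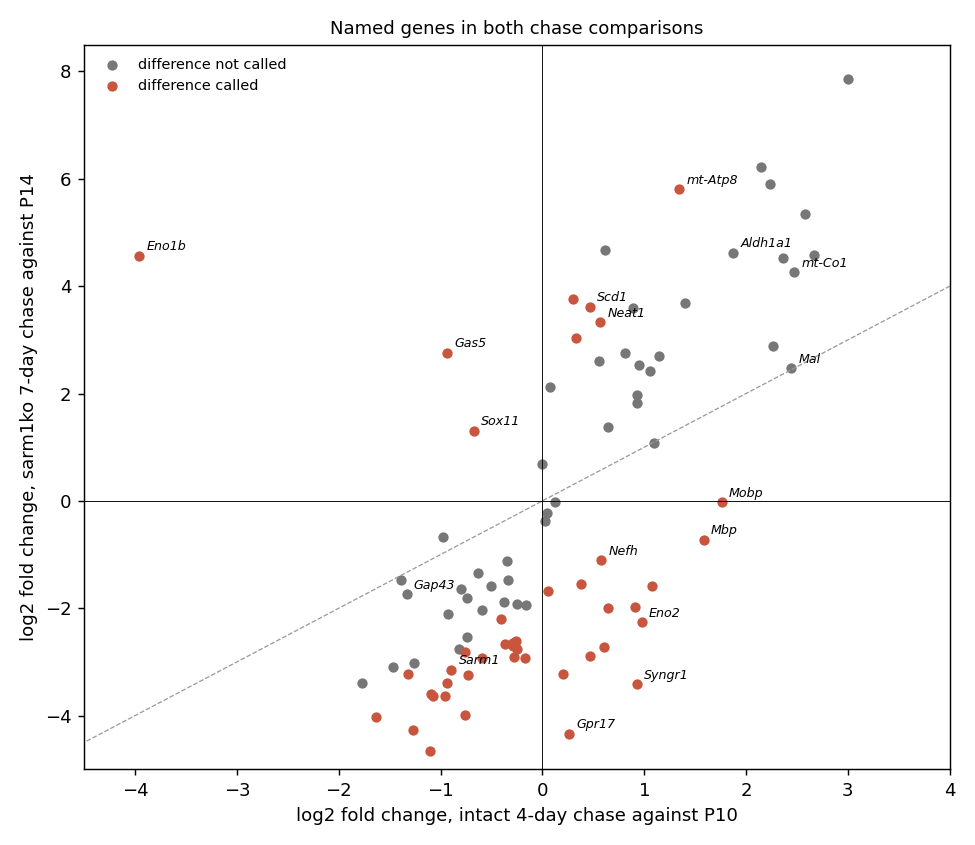
Log2 fold change of each named gene in the intact 4-day chase against P10 (x axis) and in the sarm1ko 7-day chase against P14 (y axis), coloured by whether the difference was called, with the diagonal of equal change dashed. Mal lies near the diagonal, Mbp, Mobp and Gpr17 lie below it, and Eno1b, Gas5 and Neat1 above it.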

How the data were processed

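RNA carrying ethynyl uridine was captured from superior colliculus pooled from 3 animals, copied and amplified as cDNA, and sequenced from Nextera XT libraries, per the labels' protocols. Tagmentation of double-stranded cDNA does not mark strand, so a gene and an overlapping antisense gene cannot be told apart. Estimated counts per gene were deposited by the authors in 1 table and TPM values in another, per the file headers. Salmon and mm10 are named in the submitters' processing notes, and the version is not given in the sources used here. Counts were rounded to whole numbers, filtered with filterByExpr and scaled by TMM, and the 3 sarm1ko chase libraries were set against the 3 P14 libraries by the quasi-likelihood test of edgeR 4.0.16 in R 4.3.3, two-sided, with Benjamini-Hochberg adjustment over all genes tested and a threshold of 0.05. The difference of the 2 chases is an interaction term over 12 libraries. Genes without annotation other than an identifier stayed in the tests, and 54097 of 54331 were matched to GENCODE M21 for class, length and GC content. Totals run from 17517265 to 23308561 counts in the 6 libraries.

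Named genes were the 12 largest rises and falls among called genes without overlap that changed at least by 1 on the log2 scale, averaged 4 or more in log2 CPM and have a full symbol, up to 3 called members of each list by adjusted p, the 2 members of highest CPM where none was called, the 3 members of highest CPM of marker lists, Sarm1, the 6 genes per direction with the smallest p in the difference, and the 10 genes of highest CPM. Chrna6, Nampt, Mycbp2, Nmnat2, Cnp, Mag, Gad2, Ndufs1, Smg1 and Xrn1 were added after their values were seen, and which 6 of the named genes have their sequence shown was also decided then. The members and the 37 gene lists were chosen with earlier results of these data known, and 2 lists were added after seeing the values. Alternatives were DESeq2 1.42.0 with a Wald test, RLE size factors, no filter, limma 3.58.1 on log2(TPM + 1) and log2(TPM + 0.1), all 5 P14 libraries, a replicate block, removal of CT010467.1 and mitochondrial genes, a spread shared over all groups, a length trend and each library left out. Removal of the GC and length trend (natural splines with 4 degrees of freedom per library), alone or without those genes, was chosen after seeing the data. The same scripts were tested on simulated counts. Some genes that the rule names are not reported here.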

Additional observations from a re-analysis of the deposited data

Results flagged for a closer look

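The change in the sarm1ko 7-day chase against P14 differed from the change in the intact 4-day chase against P10 for 44 of the 90 named genes, by the interaction test over 12 libraries in edgeR, with adjusted p from 0.000472 to 0.0376. Over all genes 1052 of 19578 were called. Genes were named partly by this test and by large changes in the same libraries, so the larger share follows from the choice. The values are log2 differences, sarm1ko comparison minus intact comparison. Below 0 the change from the group's own baseline was lower in the sarm1ko comparison. They do not compare levels between the 2 chase groups. Neuronal and synaptic genes below 0 were Syngr1 (−4.38), Rab3a (−2.81), Sncb (−2.60), Syp (−2.42), Thy1 (−2.39), Slc32a1 (−2.55), Sst (−2.51), Vgf (−2.45), Nefh (−1.73), Arc (−2.71), Ecel1 (−2.43) and Sarm1 (−2.31). Genes of the oligodendrocyte lineage below 0 were Gpr17 (−4.66), Sirt2 (−3.40), Sema4d (−3.38), Cnp (−2.93), Mag (−2.71), Sox10 (−2.46), Mbp (−2.36), Olig1 (−1.85) and Mobp (−1.84). Genes of mitochondria, ribosomes, glycolysis and the proton pump below 0 were Eno2 (−3.29), Cox6a1 (−2.73), Mrpl53 (−2.56), Atp6v0c (−2.54), Eno1 (−2.40), Atp6v0a1 (−2.34), Atp5d (−2.10) and Rpl18 (−1.96). Further genes below 0 were Ttc9b (−3.59), Parvb (−3.46), Eln (−3.30), Fxyd7 (−3.05), Tmem119 (−2.70), Aldoc (−1.96) and Atp1b2 (−1.78). Above 0 were Sox11 (1.93), Snhg14 (2.65), Neat1 (2.69), Scd1 (3.09), Dis3 (3.40), Gas5 (3.67), mt-Atp8 (4.41) and Eno1b (8.47). Dis3 was close to the filter at P14, so its value is no support for a change. With the GC and length trend removed each of the 44 had the same sign, which is no further support because the same counts were used to choose them. Of the 44, 12 were still called: Gpr17, Syngr1, Ttc9b, Parvb, Sirt2, Sema4d, Eno2, Rab3a, Syp, Atp6v0c, Atp6v0a1 and Eno1b. The others were not called with the trend removed, Mbp, Mobp, Mag and Cnp among them.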

How the results depend on the processing

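The 82 named genes called kept direction and call with RLE size factors, with no filter, with DESeq2 and with the replicate block. With a library left out 71 to 82 did. With the GC trend removed 50 did, 22 calls ended and 10 reversed, and with all 5 P14 libraries 42 did, 39 ended and 1 reversed. On log2(TPM + 1) and log2(TPM + 0.1) 71 and 69 did. The total of 6453 became 2534 with the GC and length trend removed, 2522 when CT010467.1 and the mitochondrial genes were left out as well, and 1011 with all 5 P14 libraries. The cause of each shift was not tested. Leaving out 1 library gave 2680 to 10376. With the replicate number as a block the total was 6944, and the numbers did not pair the samples (correlations of deviations −0.055, 0.166 and 0.108). The intact 4-day chase had 1070 genes with no filter, 939 with DESeq2, 2 with limma and 0 to 15 with a library left out. The difference of the chases had 1898, 1997 and 1978 by the same settings, 127 with the GC trend removed and 158 to 4306 with a library left out. The 8-week comparison had 518 with no filter, 803 with DESeq2, 2 with the GC trend removed and 0 to 3385 with a library left out. The sarm1ko chase against the intact chase had 2512 with the GC trend removed and 1546 to 4773 with a library left out. With the GC trend removed, and then without CT010467.1 and mitochondrial genes too, the log2 fold change turned above 0 for Tubb3 (0.0035 and 0.026), Nefh (0.89 and 0.98), Mobp (1.08 and 1.11), Olig1 (0.11 and 0.15), Gfap (1.27 and 1.30), C1qb (1.42 and 1.40), Csf1r (0.25 and 0.33), Apoe (0.73 and 0.75), Cldn5 (0.41 and 0.41), Bax (0.23 and 0.21), Atf4 (0.17 and 0.18), Arc (0.25 and 0.31) and Mag (0.42 and 0.45). With all 5 P14 libraries it turned for Mobp (0.37), Gfap (0.012) and Ndufs1 (−0.65), and Mycbp2 turned on log2(TPM + 1) and log2(TPM + 0.1) (−0.37 and −0.38). Mobp, not called, was at 0.08 without P14 replicate 2 and 0.04 without sarm1ko replicate 2, and Nefl at 0.081 and 0.058 without P14 or sarm1ko replicate 3. Over all libraries left out in turn Mobp ran from −0.13 to 0.085 and Nefl from −0.18 to 0.081. Few nuclear coding reads in sarm1ko replicate 3, 17.9% of its counts, limit the precision for genes of low level, and 37160 genes were not tested.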

Other observations

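Among hormone genes of the anterior pituitary, a list drawn up after the values were seen, Gh and Prl were present in the sarm1ko libraries. Gh, growth hormone, had 0 counts in each of the 5 P14 libraries, the P10, the 4-day chase and the fmr1ko libraries, and 79, 38 and 1905 counts in sarm1ko replicates 1 to 3. Prl, prolactin, had 3, 38 and 1212 counts in the same 3 libraries. Pomc, another hormone gene, had 75, 20 and 21 counts in P14 replicates 1 to 3 and 145, 17 and 50 in sarm1ko replicates 1 to 3. It had counts in every EU library of SC. Wild-type 8-week libraries held 655, 246 and 3128 counts of Gh and 966, 169 and 47 counts of Prl. Their source was not tested.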
